A study of Mus musculus with 4 samples.

Results

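The 10 genes described here encode the ErbB receptor tyrosine kinases (Egfr, Erbb2, Erbb3 and Erbb4) and a set of the ligands that bind them: the neuregulins Nrg1 and Nrg2, and the EGF-type ligands Hbegf, Areg, Ereg and Btc. They were chosen by symbol, with earlier results of these data known, as 10 of the 49585 genes in the count tables. They were measured by stranded mRNA sequencing in 4 libraries of C2C12 cells, a mouse myoblast line of strain C3H that fuses into myotubes when serum is lowered. The control group is 2 libraries of cells transduced with the empty retroviral vector pLXSN, and the other group is 2 libraries of cells transduced to overexpress C/EBPβ, a bZIP transcription factor. Both groups went through retroviral transduction and 7 days of G418 at 1200 µg/ml, were kept as pools of stable cells, and were left to proliferate for 2 days in 10% fetal bovine serum. Both were then moved at 90% confluency to 2% horse serum for 2 days. The labels name neither the species of the C/EBPβ cDNA nor whether libraries of 1 group are separate cultures or transductions. A p-value therefore covers only library-to-library spread, which may be technical.

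Between 36461091 and 51537847 fragments were assigned to genes in each library. Cebpb itself (ENSMUSG00000056501.3, chr2:167688915-167690418, plus strand) was counted at 42.7 and 41.3 CPM (fragment counts scaled to a common library size, with TMM factors) in the controls and at 502 and 442 CPM in the cells transduced for C/EBPβ, which is 11.2-fold higher. The summed level of 8 muscle differentiation markers was 18729 and 20442 CPM in the controls, which carry the label of differentiating myoblasts, and 4779 and 7827 CPM in the C/EBPβ libraries. All 8 of these markers fell (edgeR adjusted p under 0.05). The 2 most abundant were Myh3, embryonic myosin (7072 and 1393 CPM on average), and Acta1, skeletal actin (6544 and 2232 CPM). Myh3 missed the threshold without control replicate 1 or 2 (edgeR adjusted p = 0.0881 and 0.110) and without the filter on low counts (edgeR adjusted p = 0.1599), and Acta1 without control replicate 2 (edgeR adjusted p = 0.0522). In bulk RNA, fewer cells of a type and less RNA per cell cannot be told apart. Overexpression was accompanied by change across much of the transcriptome: of 15886 genes tested, 43.2% passed an adjusted p of 0.05 in edgeR's quasi-likelihood test, 22.3% as higher and 20.9% as lower.

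ErbB receptors work in pairs. A ligand exposes the arm through which receptors dimerise, and the partners phosphorylate each other's tails. EGFR binds EGF-type ligands such as amphiregulin (Areg) and betacellulin (Btc). ErbB3 binds neuregulins, has little kinase activity of its own and recruits PI3-kinase well when phosphorylated by a partner. ErbB2 has no known ligand and is the preferred partner of the others, while ErbB4 binds neuregulins as well as some EGF-type ligands, among them HB-EGF (Hbegf) and epiregulin (Ereg). In muscle, neuregulin-1 from nerves acts on muscle ErbB receptors, is needed for muscle spindles to form, and is held to promote acetylcholine receptor transcription beneath the synapse. The ligands are made as membrane-anchored precursors and released by ADAM proteases.

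Promoters from the RefSeq table (GRCm38.p6) were used for 5 of the 10 genes: Egfr, Erbb2, Erbb4, Areg and Btc. No promoter was used for Nrg1, Nrg2, Erbb3, Hbegf or Ereg, which does not show that the table lacked them. The 250 bases before the start are given for 3 of the 5 genes with a promoter. These 3 were shown because their RNA differed between the groups, Egfr being higher and Erbb2 and Areg lower with C/EBPβ. Capitals mark the matches to 5 motifs searched on both strands of the 300-base windows (250 bases before to 50 after the start): the C/EBP half-site pair TTGCNNAA, also read as TTNNGCAA, the full C/EBP palindrome TTGCGCAA (which the half-site pair includes), the CRE TGACGTCA, the TATA box TATAAA and the GC box GGGCGG.
Egfr (chr11:16751953-16752202, plus strand): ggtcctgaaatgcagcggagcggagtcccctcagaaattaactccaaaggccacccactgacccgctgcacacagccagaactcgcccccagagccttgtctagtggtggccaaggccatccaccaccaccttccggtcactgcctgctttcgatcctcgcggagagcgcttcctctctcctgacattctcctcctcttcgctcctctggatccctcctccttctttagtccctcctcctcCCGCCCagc
Areg (chr5:91139349-91139598, plus strand): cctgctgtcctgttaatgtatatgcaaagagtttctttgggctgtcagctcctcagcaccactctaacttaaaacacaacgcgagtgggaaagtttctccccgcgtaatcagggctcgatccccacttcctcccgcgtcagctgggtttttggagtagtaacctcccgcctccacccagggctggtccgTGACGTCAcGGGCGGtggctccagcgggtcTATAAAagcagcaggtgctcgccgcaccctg
Erbb2 (chr11:98412234-98412483, plus strand): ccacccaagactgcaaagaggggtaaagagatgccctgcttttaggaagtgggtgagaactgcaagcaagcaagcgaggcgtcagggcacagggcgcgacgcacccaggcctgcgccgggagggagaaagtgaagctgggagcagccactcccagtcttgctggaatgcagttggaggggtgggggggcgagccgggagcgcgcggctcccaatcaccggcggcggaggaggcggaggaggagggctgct

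Neither C/EBP motif matched in any of the 5 windows. Over the 32851 promoters of that length that were searched, 10.8% held the half-site pair and 0.183% the palindrome. The 5 windows without a match are therefore a description of these letters and say nothing of binding elsewhere at these genes. The other 3 motifs were added after the sequences had been seen. The Areg window held a CRE from -61 to -54, a GC box from -52 to -47, a TATA box from -31 to -26 and a second GC box from 38 to 43, counting the start base as 1. The Egfr window held a GC box from -9 to -4, and those of Erbb2, Erbb4 and Btc held none of the motifs. Of the promoters searched, 1.79% held the CRE, 13.6% the TATA box and 35.7% the GC box.

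The receptors moved in opposite directions: Egfr rose, and Erbb2 and Erbb3 fell. Egfr (ENSMUSG00000020122.16, chr11:16752203-16918158, plus strand) encodes the receptor for EGF-type ligands. It was counted at 46.7 and 41.2 CPM in the controls and at 118 and 112 CPM with C/EBPβ. Both C/EBPβ libraries were high and lay above both controls, and the gap between groups was wider than either pair. The means were 44.0 ± 3.88 and 115 ± 4.16 CPM (SD, n = 2 each), 2.62-fold higher with C/EBPβ, with a log2 fold change of 1.39 (SE 0.09, edgeR adjusted p = 2.46e-05).

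Erbb2 (ENSMUSG00000062312.5, chr11:98412470-98437716, plus strand), the partner receptor without a ligand of its own, was at 148 and 141 CPM in the controls and at 64.6 and 80.3 CPM with C/EBPβ. The groups did not overlap. The means of 145 ± 5.09 and 72.5 ± 11.1 CPM (SD, n = 2 each) made Erbb2 1.99-fold lower, with a log2 fold change of -0.997 (SE 0.11, edgeR adjusted p = 0.000391).

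Erbb3 (ENSMUSG00000018166.8, chr10:128567523-128589652, minus strand) encodes the neuregulin-binding partner of ErbB2. It had 338 and 348 CPM in the controls against 44.8 and 88.1 CPM with C/EBPβ. The lower control was 3.84 times the higher C/EBPβ library, although the C/EBPβ libraries themselves differed by 1.97-fold. The mean fell from 343 ± 7.08 to 66.4 ± 30.6 CPM (SD, n = 2 each), 5.16-fold lower, with a log2 fold change of -2.37 (SE 0.36, edgeR adjusted p = 0.0103). The call depended on the setting: the adjusted p was 0.123 without the filter on low counts, 0.157 without control replicate 1 and 0.136 without control replicate 2, at log2 fold changes of -2.38, -2.39 and -2.35. Over all 12 alternatives the adjusted p ran from 3.488e-97 to 0.157, the lowest of them where 1 C/EBPβ library was left out and the lone one was assumed to vary like the control pair.

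Erbb4 (ENSMUSG00000062209.15, chr1:68032186-69108059, minus strand), the other neuregulin receptor with an active kinase, had 1 fragment in control replicate 2 and 0 in each of the other libraries. It was too low to test. Over the 4 libraries that is 0.00544 CPM, with an exact 95% Poisson interval from 0.000138 to 0.0303 CPM that covers counting error only. Neuregulin receptor RNA in both groups was therefore nearly all Erbb3.

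**Figure D1:**
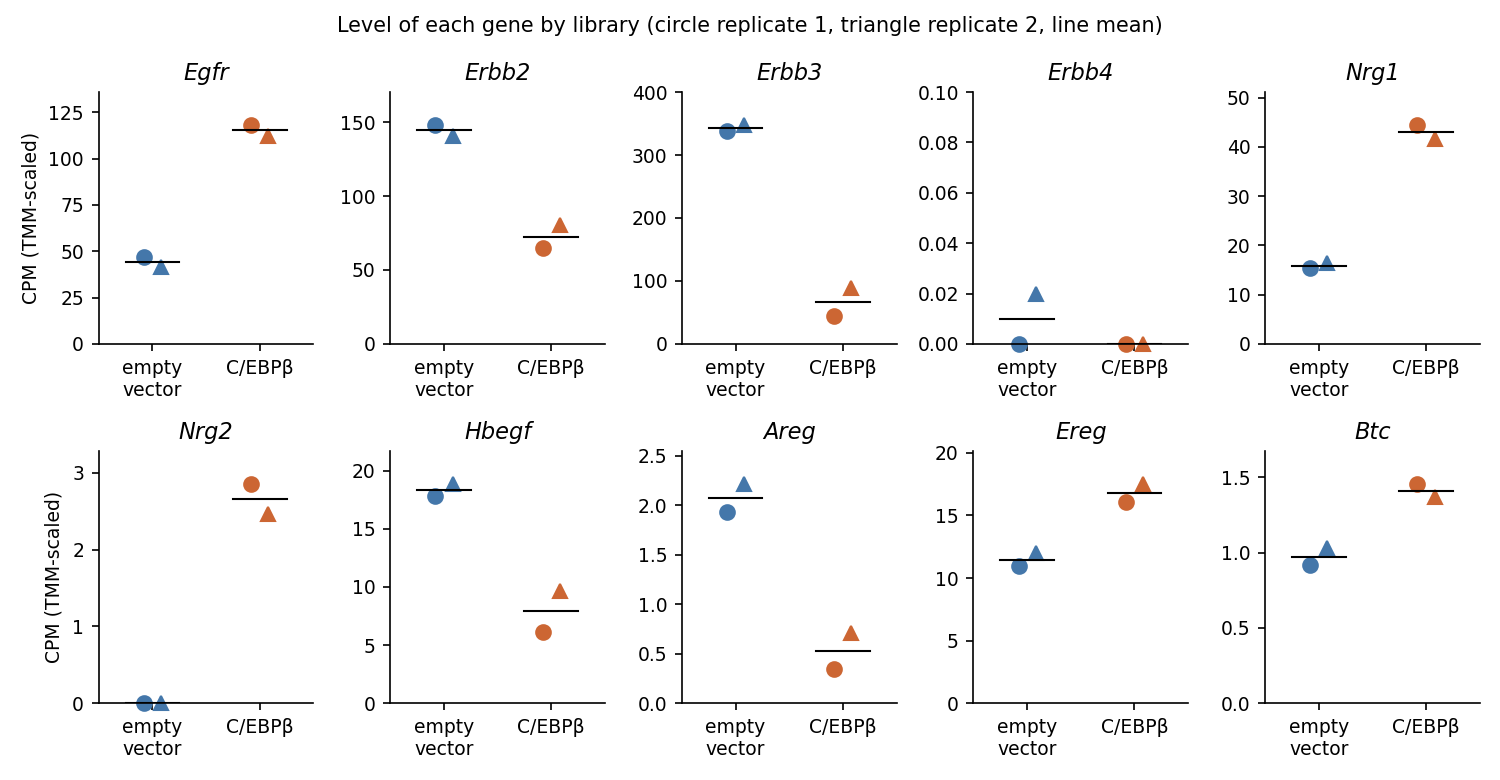
Level of each of the 10 genes by library, in CPM on TMM-scaled library sizes, with circles for replicate 1, triangles for replicate 2 and a line at the group mean, each panel on its own linear axis from 0. In 9 panels the control and C/EBPβ points do not overlap, which was so for 75.1% of all tested genes, and in the Erbb4 panel 1 fragment gives the only point above 0.

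Both neuregulin genes rose. Nrg1 (ENSMUSG00000062991.7, chr8:31814551-32884029, minus strand), the neuregulin known for its part in spindles and synapses, was at 15.4 and 16.4 CPM in the controls and at 44.5 and 41.6 CPM with C/EBPβ. The pairs were tight and far apart. The mean rose from 15.9 ± 0.708 to 43.0 ± 2.00 CPM (SD, n = 2 each), 2.71-fold (log2 fold change 1.44, SE 0.09, edgeR adjusted p = 2.47e-05). Of the 50-base windows in annotated Nrg1 transcripts, 4.09% also occurred in Gm26578, so that small part of the count is uncertain.

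Nrg2 (ENSMUSG00000060275.11, chr18:36017707-36197380, minus strand), a second neuregulin that binds ErbB3 and ErbB4, had 0 fragments in both controls. With C/EBPβ it had 149 and 90 fragments, or 2.85 and 2.46 CPM (mean 2.66 ± 0.277, SD, n = 2, edgeR adjusted p = 5.03e-05). It passed the filter on low counts only through these libraries, so it had to differ and the p-value adds no support. Zero counts were taken to allow up to 3 fragments over the control group, or 0.0315 CPM. The exact 95% Poisson intervals of the single controls reached 0.0828 and 0.0729 CPM. Against 0.0315 CPM, which covers counting error in the controls only, the pooled C/EBPβ level of 2.69 CPM was at least 85.4-fold higher. In level it stayed far under Nrg1, at 3.25 and 2.74 TPM (a scaled level that divides counts by exon length) against 15.1 and 13.8 TPM.

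The EGF-type ligands split. Hbegf and Areg fell, Ereg rose, and Btc did not pass the test. Hbegf (ENSMUSG00000024486.5, chr18:36504929-36515805, minus strand) encodes heparin-binding EGF-like growth factor, whose precursor is also the diphtheria toxin receptor in humans. It lies 307.5 kb from Nrg2 on the same strand and moved the other way. Its 4 values were 17.8 and 18.8 CPM in the controls and 6.15 and 9.65 CPM with C/EBPβ. Every control was above every C/EBPβ library, by at least 1.85 times. The mean was 18.3 ± 0.728 and 7.90 ± 2.48 CPM (SD, n = 2 each), 2.32-fold lower with C/EBPβ, with a log2 fold change of -1.23 (SE 0.20, edgeR adjusted p = 0.00364).

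Ereg, Areg and Btc lie in 1 stretch of chromosome 5, with 45.95 kb between Ereg and Areg and 208.8 kb between Areg and Btc, and did not move together. Areg (ENSMUSG00000029378.5, chr5:91139599-91148432, plus strand), an EGFR ligand, had 1.93 and 2.21 CPM in the controls and 0.345 and 0.711 CPM with C/EBPβ, from 86, 112, 18 and 26 fragments. The exact 95% Poisson intervals, which cover counting error within a library and not the spread between libraries, were 1.54 to 2.38 CPM for the lower control and 0.465 to 1.04 CPM for the higher C/EBPβ library. The mean fell from 2.07 ± 0.202 to 0.528 ± 0.259 CPM (SD, n = 2 each), 3.93-fold lower, with a log2 fold change of -2.03 (SE 0.33, edgeR adjusted p = 0.00209). The C/EBPβ pair differed by 2.06-fold.

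Ereg (ENSMUSG00000029377.5, chr5:91074622-91093646, plus strand), a ligand of EGFR and ErbB4, was at 10.9 and 12.003 CPM in the controls and at 16.0 and 17.5 CPM with C/EBPβ. The mean was 11.5 ± 0.761 and 16.8 ± 1.03 CPM (SD, n = 2 each), 1.46-fold higher with C/EBPβ, with a log2 fold change of 0.55 (SE 0.11, edgeR adjusted p = 0.00607). Both C/EBPβ libraries were above both controls, by at least 1.34 times, the opposite of its neighbour Areg. Of its 50-base windows, 2.26% also occurred in Gm19610.

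Btc (ENSMUSG00000082361.6, chr5:91357261-91402994, minus strand), another ligand of EGFR and ErbB4, had 0.920 and 1.03 CPM in the controls and 1.45 and 1.37 CPM with C/EBPβ, from 41, 52, 76 and 50 fragments. The points did not overlap, but the counting intervals of single libraries did, with 0.768 to 1.35 CPM for the higher control and 1.01 to 1.80 CPM for the lower C/EBPβ library. Its log2 fold change of 0.53 (SE 0.24) was close to that of Ereg and did not pass (edgeR adjusted p = 0.105, range 0.0824 to 0.331 over the alternatives). Its difference was not resolved with these libraries.

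Set per length, the order of the receptors differed between groups. In the controls Erbb3 was highest at 183 and 186 TPM, then Erbb2 at 92.9 and 86.8 TPM, then Egfr at 13.5 and 11.7 TPM. No neighbours in that order overlapped. With C/EBPβ the values were 26.2 and 50.3 TPM for Erbb3, 43.6 and 52.9 TPM for Erbb2, and 36.7 and 34.0 TPM for Egfr, and neighbours overlapped. The ratio of Erbb3 to Egfr was 13.6 and 15.9 in the controls and 0.714 and 1.48 with C/EBPβ, and that of Erbb3 to Erbb2 was 1.98 and 2.14 against 0.600 and 0.9498. The order with C/EBPβ depended on the length scaling (11326 bases counted for Egfr, 5210 for Erbb2 and 6016 for Erbb3). By fragments Egfr (118 and 112 CPM) was above Erbb2 (64.6 and 80.3 CPM) and Erbb3 (44.8 and 88.1 CPM) in both C/EBPβ libraries. In the controls the order was the same on both scales.

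Summed over the receptors, the level was 290 and 284 TPM in the controls and 106 and 137 TPM with C/EBPβ, a ratio of means of 0.425. The share of Egfr in this sum was 4.38% ± 0.379 in the controls and 29.6% ± 6.83 with C/EBPβ (SD, n = 2 each). The share of Erbb3 was 64.3% ± 1.43 and 30.6% ± 8.51, and that of Erbb2 was 31.3% ± 1.05 and 39.8% ± 1.69. Counted as fragments, without scaling by length, Egfr had 8.27% and 46.0% of the receptor sum and Erbb2 27.2% and 28.5%, so the difference in the share of Erbb2 was smaller on that scale. These shares follow from the 3 gene changes above and were not tested apart from them, and 2 libraries against 2 cannot give an exact permutation p under 0.333.

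**Figure D2:**
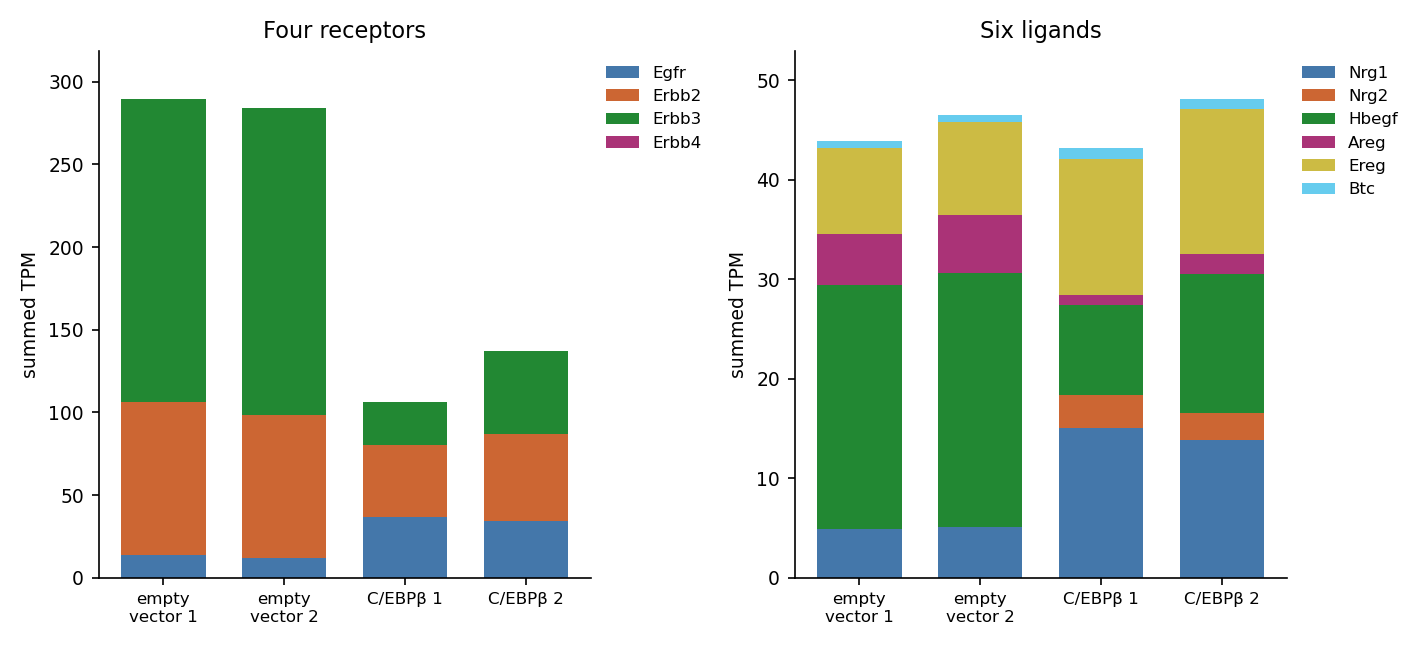
Summed level of the 4 receptors (left) and the 6 ligands (right) in each library, in TPM, with each gene as a stacked segment. The receptor bars are 290 and 284 TPM in the controls and 106 and 137 TPM with C/EBPβ, while the ligand bars are 43.9, 46.5, 43.2 and 48.1 TPM and differ mainly in make-up.

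The ligands had sums per length that overlapped between groups, with a different make-up. Their summed level was 43.9 and 46.5 TPM in the controls and 43.2 and 48.1 TPM with C/EBPβ. By fragments, a scale on which the long Nrg1 (10351 bases counted) weighs more, the sum was 47.0 and 50.5 CPM against 71.3 and 73.3 CPM, 1.48-fold higher. Hbegf was the first ligand of the controls, at 24.5 and 25.5 TPM, and had 9.10 and 14.0 TPM with C/EBPβ. In those libraries Nrg1 at 15.1 and 13.8 TPM, Ereg at 13.7 and 14.6 TPM and Hbegf could not be put in order beyond their spread. The share of Hbegf in the ligand sum was 55.4% ± 0.746 in the controls and 25.04% ± 5.64 with C/EBPβ, and that of Nrg1 was 11.0% ± 0.0953 and 31.8% ± 4.40 (SD, n = 2 each). Areg had 12.2% and 3.24%, Ereg 19.9% and 30.9%, Btc 1.54% and 2.39%, and Nrg2 0% and 6.61%. By fragments the share of Ereg was 23.5% and 23.2% and that of Btc 2.00% and 1.95%, so their shares differed only per length. Hbegf (37.6% and 10.9%), Nrg1 (32.6% and 59.6%), Areg (4.25% and 0.727%) and Nrg2 (0% and 3.68%) kept their direction by fragments. Per length, the ratio of Nrg1 to Hbegf was 0.198 and 0.199 in the controls and 1.66 and 0.988 with C/EBPβ.

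Over the family, 9 of the 10 genes were tested and 8 passed, 4 as higher (Egfr, Nrg1, Nrg2 and Ereg) and 4 as lower (Erbb2, Erbb3, Hbegf and Areg), where 43.2% of all tested genes passed, 22.3% as higher and 20.9% as lower. Nrg2 passed the filter on low counts only through the C/EBPβ libraries, so it had to differ. The median log2 fold change of the 9 genes was 0.53, also with Nrg2 at its lower bound, against 0.01 over all tested genes, and the genes lay on both sides of it. Of the 9, 6 changed at least 2-fold, Nrg2 among them, against 17.7% of all tested genes. The genes were chosen with earlier results of these data known, so these counts are a description and not independent support. In 12 alternative fits 4 genes were called higher each time and 3 to 4 lower.

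**Figure D3:**
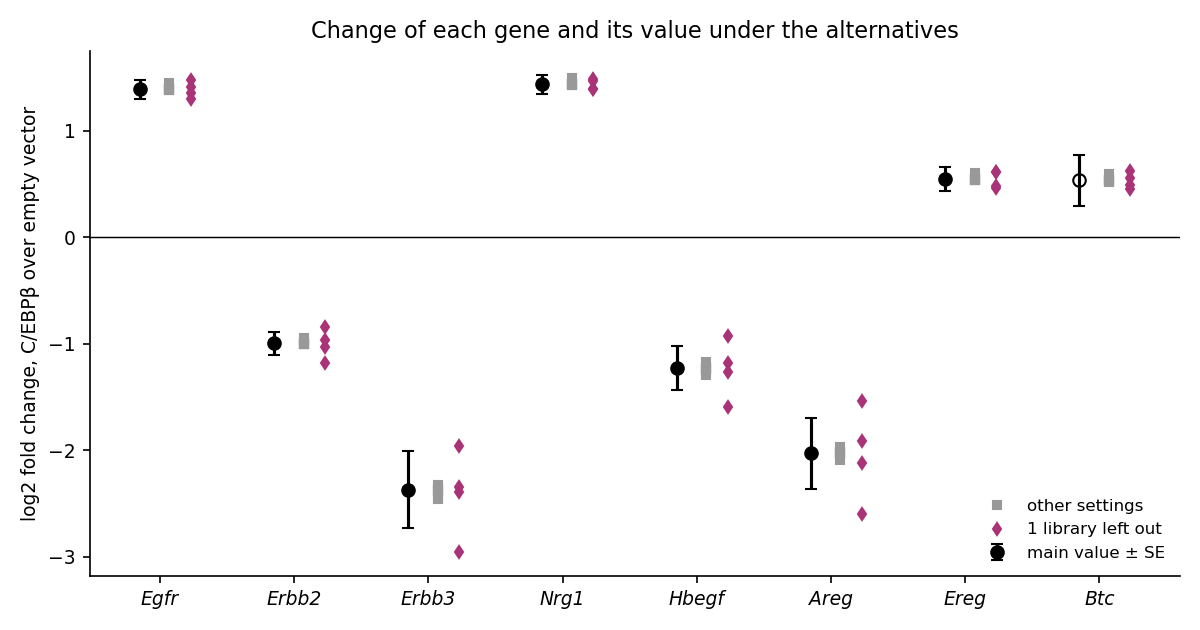
Log2 fold change of C/EBPβ over empty vector for 8 of the tested genes, as the value with its SE (black, open where the test was not passed), under the other settings (grey squares) and with 1 library left out (diamonds). The 8 genes keep their side of 0 throughout, with the widest ranges for Areg, from -2.60 to -1.54, and Erbb3, from -2.95 to -1.96; Nrg2 has no control fragments and is not drawn.

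The 4 genes that fell had the same order of the 2 C/EBPβ libraries, which was not particular to them. For Erbb2, Erbb3, Hbegf and Areg, C/EBPβ replicate 2 lay above replicate 1 and so nearer to the controls, and the muscle marker sum did the same (4779 and 7827 CPM). Outside the muscle markers, Hras, Pik3cb and Hsp90aa1 fell with that order too, while Akt1, Egr1 and Krt14 fell with the reverse order. The share over all lower genes was not counted. Cebpb was at 502 CPM in C/EBPβ replicate 1 and 442 CPM in replicate 2. The parts of muscle RNA and of the Cebpb level in these 4 genes were not tested. Egfr, Nrg1, Nrg2 and Btc were a little higher in C/EBPβ replicate 1, and Ereg in replicate 2, all by at most 1.16 times.

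Genes around the receptors were taken as lists. The other ligands were low: of Egf, Tgfa, Epgn, Nrg3 and Nrg4, only Egf and Epgn could be tested. Egf, the founding EGFR ligand, had means of 2.87 and 3.54 CPM (log2 fold change 0.31, edgeR adjusted p = 0.191), and Epgn, epigen, had 0.442 and 0.219 CPM (log2 fold change -1.03, edgeR adjusted p = 0.0533). By edgeR 0 of the 2 passed and 1 had an unadjusted p under 0.05. DESeq2 and limma-voom also called 0. Tgfa, another EGFR ligand, had 9 and 26 fragments in the controls and 7 and 4 with C/EBPβ, too few for the filter. Of the 4 alternative fits that kept it, it was called lower without that filter (edgeR adjusted p = 0.0169) and without control replicate 1 (edgeR adjusted p = 0.0256), the 1 call of the list in each. It did not pass without C/EBPβ replicate 1 (edgeR adjusted p = 0.0708) or 2 (edgeR adjusted p = 0.0577). Nrg3 had no fragment in any library.

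Of 13 genes for ligand sheddases and their regulators, which cut precursors free or control that cut, 3 rose, 3 fell and 7 did not pass (median log2 fold change -0.08). That is near the share over all tested genes, of which 43.2% passed. Bace1, the aspartyl protease that cleaves neuregulin-1, rose from 68.0 to 111 CPM (log2 fold change 0.70, edgeR adjusted p = 0.000563). Adam12, a metalloprotease of fusing muscle cells that cuts HB-EGF, rose from 15.1 to 25.8 CPM (log2 fold change 0.77, edgeR adjusted p = 0.00158). Timp3, an inhibitor of ADAM proteases, rose from 219 to 314 CPM (log2 fold change 0.52, edgeR adjusted p = 0.00333). The genes that fell, named after their values were seen, were Adam19 (-0.36), Adam8 (-0.64) and Rhbdf1 (-0.31) on the log2 scale, and 1 gene was called lower without control replicate 1. The main sheddases Adam10 (-0.04, edgeR adjusted p = 0.734) and Adam17 (-0.10, edgeR adjusted p = 0.386) did not pass.

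Among 17 genes for receptor inhibitors and turnover, 5 rose, 3 fell and 9 did not pass (median log2 fold change 0.02). The share that passed was near the 43.2% of all tested genes. Erbin, an ErbB2-binding scaffold, rose from 154 to 240 CPM (log2 fold change 0.64, edgeR adjusted p = 0.000743). Lrig3, of a family of receptor-binding membrane proteins, rose from 30.4 to 42.4 CPM (log2 fold change 0.48, edgeR adjusted p = 0.00441). Hsp90aa1, a chaperone on which ErbB2 depends, fell from 271 to 185 CPM (log2 fold change -0.55, edgeR adjusted p = 0.00406). Named after their values were seen, Errfi1, which encodes the feedback inhibitor MIG6, rose from 67.7 to 117 CPM (log2 fold change 0.79, edgeR adjusted p = 0.00446), as did Cblb (0.32) and Socs5 (0.31), while Rnf41 (-0.26), whose product marks ErbB3 for degradation, and Ptpn12 (-0.43) fell. Without control replicate 2 the counts were 3 higher and 1 lower, and without C/EBPβ replicate 2 there were 5 lower.

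The kinases and adaptors below the receptors changed in both directions: of 31 genes 30 were tested, 6 rose, 9 fell and 15 did not pass (median log2 fold change -0.07). This too was near the 43.2% of all tested genes that passed. Pik3r1, the regulatory PI3-kinase subunit p85α, rose from 97.8 to 225 CPM (log2 fold change 1.20, edgeR adjusted p = 9.33e-05). Pik3cb, a catalytic PI3-kinase subunit, fell from 23.3 to 8.95 CPM (log2 fold change -1.39, edgeR adjusted p = 0.000140). Hras, a small GTPase upstream of ERK, fell from 84.5 to 45.0 CPM (log2 fold change -0.91, edgeR adjusted p = 0.000160).

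Of 23 ERK-responsive genes and feedback inhibitors, 6 rose, 6 fell and 11 did not pass (median log2 fold change -0.19), and 10 fell without C/EBPβ replicate 2. Over all tested genes 43.2% passed. Egr3, an early growth response factor that neuregulin induces in muscle spindles, fell from 19.0 to 7.37 CPM (log2 fold change -1.37, edgeR adjusted p = 0.000195). Etv1, an ETS factor, rose from 9.94 to 16.7 CPM (log2 fold change 0.74, edgeR adjusted p = 0.00155), and Myc rose from 34.2 to 49.3 CPM (log2 fold change 0.53, edgeR adjusted p = 0.00161).

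The synaptic and spindle genes of muscle, listed here as linked to neuregulin, were mostly lower: 11 of 17 fell, 2 rose and 4 did not pass (median log2 fold change -0.75). Over all tested genes 20.9% fell and 22.3% rose (median 0.01). The list includes acetylcholine receptor subunits and Agrn, Lrp4, Musk, Dok7 and Rapsn, and a response of its genes to neuregulin was not tested. Besides Egr3, which is in both lists, Colq, the collagen tail of acetylcholinesterase, fell from 13.6 to 5.08 CPM (log2 fold change -1.43, edgeR adjusted p = 0.000815). Chrne, the adult acetylcholine receptor subunit, fell from 0.862 to 0.0930 CPM (log2 fold change -3.22, edgeR adjusted p = 0.000910), the latter from 4 fragments in each C/EBPβ library. The genes that rose, named after their values were seen, were Etv5 (0.47) and Agrn (0.34), and 1 rose without control replicate 2. The muscle markers fell as well (median -1.59 on the log2 scale), and their part in this list was not tested.

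**Figure D4:**
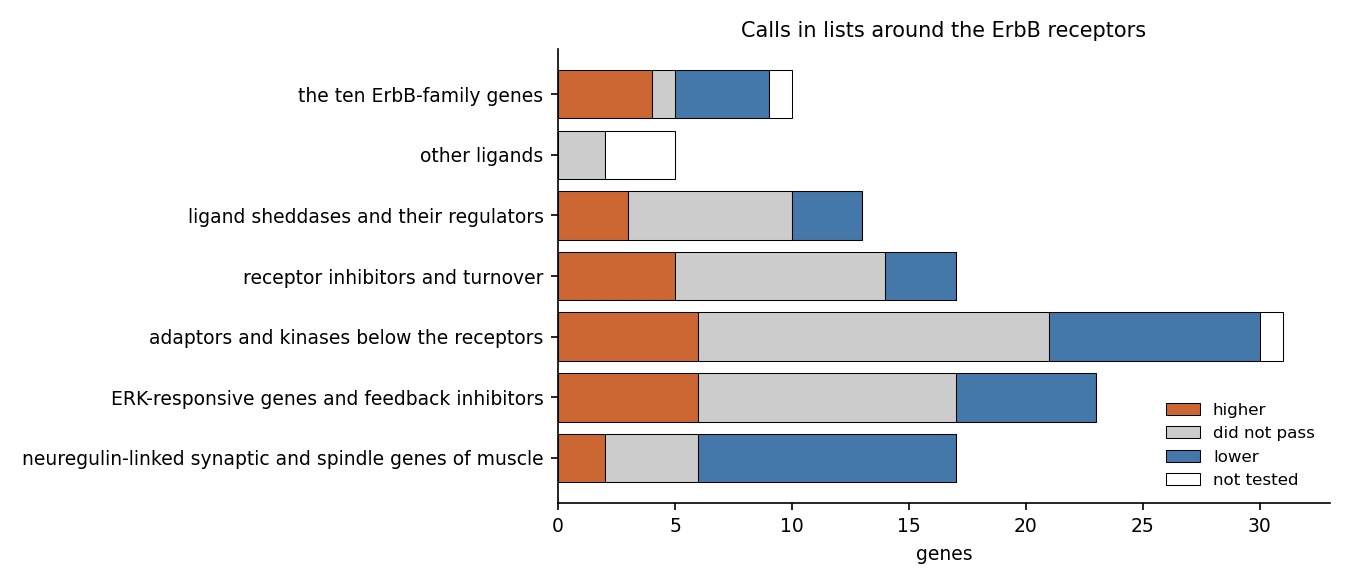
Number of genes in each list that were higher (orange), lower (blue), did not pass (grey) or were not tested (white) with C/EBPβ, at an edgeR adjusted p of 0.05. The 10 family genes split 4 and 4, and the synaptic and spindle list has 11 lower and 2 higher. Over all tested genes 22.3% were higher and 20.9% lower.

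Markers of other cell types were read because ErbB genes are also expressed outside muscle. The 9 Schwann and glial genes summed to 158 and 141 CPM in the controls and 256 and 241 CPM with C/EBPβ, of which Pmp22, also expressed outside glia, was 146 and 244 CPM on average. Of 4 tested, 2 rose; Foxd3 had no fragments and Sox10 1 in all libraries. The 9 epithelial genes summed to 33.8 and 43.8 CPM against 7.29 and 8.20 CPM, mostly Trp63 (32.6 and 6.57 CPM on average) with Krt14 at 3.52 and 0.816 CPM. All 3 tested fell, and Epcam and Grhl2 had no fragments.

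The 8 macrophage genes summed to 9.11 and 8.23 CPM in the controls and 44.7 and 41.4 CPM with C/EBPβ, with 3 of 6 tested higher and 1 lower. Lyz2, lysozyme, was at 0.107 and 27.3 CPM and Cd14 at 5.07 and 11.4 CPM on average, while the defining gene Adgre1 had no fragments. The 7 endothelial genes summed to 2.00, 1.98, 1.90 and 2.00 CPM, with 1 of 2 tested lower (Tek, 0.605 and 0.231 CPM, a call lost with DESeq2 at an adjusted p of 0.137 and without either control or C/EBPβ replicate 2), Vwf not passing, and Tie1 and Emcn without fragments. The 8 genes of fibroblasts and fibro-adipogenic progenitors summed to 4795 and 3875 CPM against 13356 and 13161 CPM. In that list 5 rose and 1 fell, with Col3a1 at 3554 and 12168 CPM and Col1a1 at 315 and 490 CPM on average. The part of these marker levels in the changes of the ErbB genes was not tested.

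The authors' deposited table lists 9 of the 10 genes, all with the same sign as above and 8 with an adjusted p under 0.05. Its log2 fold changes were 1.32 for Egfr, 1.36 for Nrg1, -1.06 for Erbb2 and -2.35 for Erbb3, the last with an adjusted p of 1.278e-11 in the authors' deposited table. For Btc the authors' deposited table gave 0.45, with an adjusted p of 0.264. The mean in the authors' deposited table was 0.569 times (Erbb3) to 4.33 times (Areg) the mean of these 4 libraries, so other libraries may have entered it, and it is not independent of the values above.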

How the data were processed

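RNA from 4 C2C12 libraries was sequenced from stranded mRNA libraries, per the labels' protocols. The authors deposited raw counts of fragments per gene. The aligner was HISAT2 2.0.4 on GRCm38, per the submitters' processing notes. The counter was featureCounts, version 1.4.6 in those notes and 1.5.1 per the file headers, which also give paired, reverse-strand counting against GENCODE M12. The authors' deposited table holds, per the file headers, each gene's mean signal and log2 fold change, the error and test score of that change, and p-values before and after adjustment. The notes list DESeq2 without a version.

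Of 49585 genes, 26401 had a fragment and 15886 passed filterByExpr (minimum count 10, minimum total 15). A reference table gave symbols to 49326 identifiers. The 2 groups, from the titles, were compared with edgeR 4.0.16 in R 4.3.3 (TMM, robust glmQLFit, 2-sided glmQLFTest), with Benjamini-Hochberg adjustment over all tested genes and a threshold of 0.05. Fold values are ratios of mean CPM. The SE of an edgeR log2 fold change was derived from the test, as its absolute value over the square root of the F statistic. TPM used the counted exon length and are not TMM-scaled. Squared differences between replicates were 18.2 (controls) and 25.9 (C/EBPβ) times those of sampling noise (chi-square per degree of freedom), so no library was a copy. What edgeR names the biological coefficient of variation was 9.42%, and it may here hold technical spread. Alternatives changed the scaling, filter, robust setting, tool (DESeq2 1.42.0, limma 3.58.1 voom), replicate block and libraries.

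The genes and lists were chosen with earlier results of these data known. Named genes are the 10, Cebpb, the 3 with the smallest p in each pathway list and the 2 most abundant tested genes in each marker list. One gene under this rule is not reported here. No protein sequences were used here.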

Additional observations from a re-analysis of the deposited data

How the results depend on the processing

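With 2 libraries a group, 36461091 to 51537847 fragments each, Areg, Btc and Nrg2 rest on few fragments. Over 12 alternative fits, 105 of 108 values of the family genes kept their direction and their side of the threshold, and 3 lost the call, all of Erbb3. Its log2 fold change without the filter on low counts was -2.38 (edgeR adjusted p = 0.123), and it ran from -2.95 to -1.96 with 1 library left out, losing the call without control replicate 1 or 2; the cause was not tested. Of 345 values of other named genes, 334 were alike, 8 lost a call, 2 gained one and 1 reversed: Vwf, at 0.21, ran from -0.0851 to 0.47, the lowest without C/EBPβ replicate 2. Leaving out 1 library gave 2169 to 3712 genes higher and 1836 to 3702 lower over all genes, fewest without control replicate 2. In the lists, the counts with 1 library left out ran from 3 to 5 higher and 1 to 5 lower for receptor inhibitors, 1 to 2 higher for synaptic genes, 0 to 1 lower for other ligands (also 1 without the filter on low counts), 1 to 3 lower for sheddases and 4 to 10 lower for ERK-responsive genes. By fragments, without length scaling, the Egfr share was 8.27% and 46.0% and the Erbb2 share 27.2% and 28.5%. Other scalings moved the median of all genes by at most 0.055 (log2). The labels do not say whether equal replicate numbers mark a shared culture or batch (correlation of deviations 0.147 over 2 pairs). With the replicate block 4 family genes were higher and 4 lower. Over all genes 3983 were higher and 3694 lower with the block, against 3540 and 3324 without it.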
